A study of Mus musculus with 2 samples.

Results

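In E11.5 mouse hearts, 7348 accessible regions away from promoters lay in 531 dense clusters, out of 74864 distal accessible regions, which is 9.82% of them. Accessibility was measured by ATAC-seq, in which a transposase inserts sequencing adapters into open DNA. The hearts were wildtype, of the FVB strain, and there were 2 replicates, each made from 2 hearts of embryos with 49 to 51 somites and about 50000 cells. Both replicates belong to a single group, with no allele, treatment or second tissue, so every result here is a description without a test. A region counted as shared where a called peak of replicate 1 overlapped a peak of replicate 2 by at least 1 bp, and only the overlapping part was kept. Shared regions on the 19 autosomes were called distal where their midpoint lay more than 2.5 kb from every protein-coding transcript start (GENCODE M21, GRCm38/mm10). Distal regions with midpoints at most a fixed linking distance apart (given with the processing) were joined in a chain, no gap inside the kept chains exceeding 12.484 kb, and the members described here were chosen by lying in a chain of 10 or more. The positions of the called peaks thus chose the members, and density itself is not a finding.

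Distal accessible regions include enhancers, stretches of DNA to which transcription factors bind and from which they raise the transcription of genes at a distance. Genes that control development often have many such elements, in their introns, in neighbouring genes or in gene deserts on either side. Cardiac enhancers are known for binding sites of GATA, T-box, NKX2, MEF2, HAND, TEAD and MEIS factors. Accessibility does not show that an element is active, nor which gene it acts on, and a gene is named here only for its position in or beside a chain.

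The strongest member of each of the 6 largest chains, and of 5 further chains at genes of the gene lists used here, is shown so that the DNA behind the values can be read. Strongest here means the highest mean of the 2 replicates. Each line gives 200 bases of the GRCm38 reference (plus strand, 5′ to 3′) around the replicate 1 summit, the position of highest pileup. The reference is not the FVB strain of the embryos. Capitals mark a match, on either strand, to 1 of 12 short motifs, whose letters are given with the motif results.
*Etv6* chain, intron of *Etv6*, chr6:134182661-134182860: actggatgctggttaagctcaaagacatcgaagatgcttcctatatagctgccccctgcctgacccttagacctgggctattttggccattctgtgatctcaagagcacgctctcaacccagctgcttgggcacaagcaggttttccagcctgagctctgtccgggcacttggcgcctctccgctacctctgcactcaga
*Nav2* chain, intron of *Nav2*, chr7:49522598-49522797: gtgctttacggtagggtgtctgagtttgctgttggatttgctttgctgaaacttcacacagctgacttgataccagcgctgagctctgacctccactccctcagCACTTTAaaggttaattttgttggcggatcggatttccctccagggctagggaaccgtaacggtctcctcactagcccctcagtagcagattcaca
*Igf2r* chain, upstream of *Igf2r*, chr17:12790775-12790974: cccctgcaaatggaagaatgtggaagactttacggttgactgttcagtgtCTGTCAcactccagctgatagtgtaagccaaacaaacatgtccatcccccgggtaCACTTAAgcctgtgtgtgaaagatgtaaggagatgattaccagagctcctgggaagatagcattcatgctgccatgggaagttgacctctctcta
*Aff1* chain, intron of *Aff1*, chr5:103828843-103829042: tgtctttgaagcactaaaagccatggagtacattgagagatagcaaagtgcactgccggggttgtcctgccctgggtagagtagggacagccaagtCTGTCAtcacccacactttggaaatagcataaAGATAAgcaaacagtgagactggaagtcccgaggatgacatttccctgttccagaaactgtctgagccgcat
*Vps13d* chain, beyond the end of *Vps13d*, chr4:144949586-144949785: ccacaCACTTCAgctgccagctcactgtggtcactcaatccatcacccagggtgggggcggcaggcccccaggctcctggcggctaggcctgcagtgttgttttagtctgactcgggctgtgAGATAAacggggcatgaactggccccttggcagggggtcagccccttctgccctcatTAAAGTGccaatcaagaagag
*Mbnl1* chain, intron of *Mbnl1*, chr3:60603120-60603319: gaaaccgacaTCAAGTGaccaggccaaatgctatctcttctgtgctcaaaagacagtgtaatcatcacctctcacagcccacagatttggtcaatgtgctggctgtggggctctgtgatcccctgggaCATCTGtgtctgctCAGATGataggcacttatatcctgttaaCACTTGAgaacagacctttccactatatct
*Meis1* chain, upstream of *Meis1*, chr11:19027228-19027427: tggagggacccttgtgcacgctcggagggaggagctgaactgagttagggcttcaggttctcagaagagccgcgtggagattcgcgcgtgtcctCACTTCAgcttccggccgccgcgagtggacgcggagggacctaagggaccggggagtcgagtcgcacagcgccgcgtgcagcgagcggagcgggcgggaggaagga
*Zfpm1* chain, intron of *Zfpm1*, chr8:122294334-122294533: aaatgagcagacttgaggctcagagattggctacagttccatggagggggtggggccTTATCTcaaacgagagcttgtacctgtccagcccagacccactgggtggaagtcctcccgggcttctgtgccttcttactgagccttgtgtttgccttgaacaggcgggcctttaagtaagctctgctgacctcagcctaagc
*Ldb3* chain, intron of *Ldb3*, chr14:34574123-34574322: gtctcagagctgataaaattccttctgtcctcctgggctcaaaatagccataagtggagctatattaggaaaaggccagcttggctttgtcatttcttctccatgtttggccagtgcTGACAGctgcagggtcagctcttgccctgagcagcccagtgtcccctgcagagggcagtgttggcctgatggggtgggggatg
*Tnnt3* chain, outside genes, chr7:142578207-142578406: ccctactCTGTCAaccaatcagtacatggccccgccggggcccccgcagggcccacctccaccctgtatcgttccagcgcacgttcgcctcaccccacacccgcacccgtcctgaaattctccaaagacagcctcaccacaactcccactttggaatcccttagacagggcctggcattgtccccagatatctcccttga
*Irx4* chain, downstream of *Irx4*, chr13:73298758-73298957: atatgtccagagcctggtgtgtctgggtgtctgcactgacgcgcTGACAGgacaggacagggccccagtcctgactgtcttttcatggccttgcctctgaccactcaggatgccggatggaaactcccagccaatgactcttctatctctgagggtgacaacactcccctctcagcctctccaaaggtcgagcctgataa

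These 11 sites lay 7.51 to 147 kb from the nearest protein-coding start, 6 of them in introns and 5 outside protein-coding genes. The label outside genes at the *Tnnt3* site likewise refers to protein-coding genes only. The nearest protein-coding start to that site was that of *Mrpl23*, 44.5 kb away. Whether the site lies in or at the start of a gene of another kind was not tested. The *Mbnl1* site had the highest mean, with fold enrichments of 30.7 and 35.7 (replicates 1 and 2). Fold enrichment is the peak caller's pileup at the summit over a genome-wide background. The *Meis1* and *Tnnt3* sites were the lowest of the 11, with 15.2 and 16.6 at *Meis1* and 16.8 and 15.3 at *Tnnt3*, a fast skeletal muscle troponin gene. The summits of the replicates lay 6 to 186 bp apart. No motif match was found in the 200 bases at *Etv6*, which says only that these letters are not in that window.

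Replicate 1 had 118027 peaks and replicate 2 had 114783, and 98924 regions were shared. Promoter regions of marker genes were used to check the tissue. All 8 cardiomyocyte markers, all 6 endothelial and endocardial, all 4 epicardial, all 4 mesenchymal and all 4 erythroid markers had a shared region within 2.5 kb of a start. The same held for 3 of 4 neuronal markers, 2 of 4 skeletal muscle markers and 1 of 4 liver markers, with *Alb*, *Afp* and *Hnf4a* among those without one, against 69.6% of all autosomal protein-coding genes. A peak in whole hearts cannot be assigned to a cell type, and a site open in few cells cannot be told apart from a site weakly open in many.

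Chain sizes fell off steeply. Of the distal regions, 20457 (27.3%) had no other within the linking distance. There were 126 chains of exactly 10, just inside the limit, and 165 of exactly 9, just outside it. Regions in these chains had median fold enrichments of 6.52 and 6.03 in replicates 1 and 2 in the chains of 10, and 6.25 and 5.53 in the chains of 9. The chains kept had a median of 12 regions, 56 had 20 or more and 13 had 30 or more, up to 45.

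**Figure D1:**
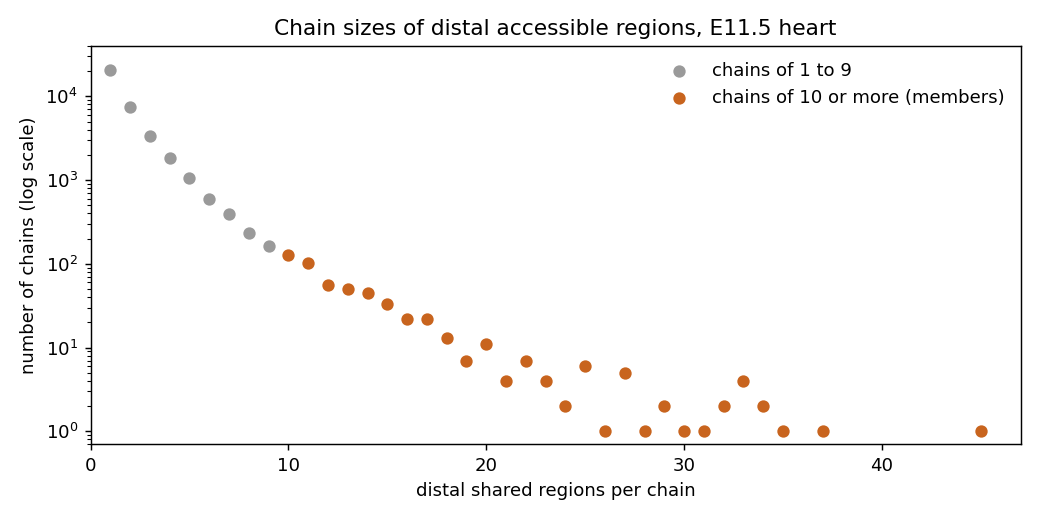
Number of chains (log scale) against the number of distal shared regions in a chain. Grey points are chains of 1 to 9, orange points the 531 chains of 10 or more; the counts fall from 20457 single regions to 126 chains of 10 and a single chain of 45.

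The 531 chains spanned 13.1 to 157 kb between the first and last midpoint, with a median of 44.2 kb, and together 25.4 Mb. Neighbouring members lay a median of 2.57 kb apart, and 71.0% of the gaps were at most 5 kb. Chains were spread over all autosomes, and the share of distal regions that were members ran from 5.62% on chromosome 9 to 12.2% on chromosome 10. Neighbouring chains were usually far apart, with a median distance of 2.63 Mb, but 52 of 512 neighbouring pairs were within 50 kb of each other. A pair of this kind lies in and beside *Bmp2k*, where chains of 16 and 23 regions were separated by 11.99 kb. *Frs2*, an adaptor of FGF receptors, held chains of 22 and 11 regions with 13.8 kb between them.

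Some members were pieces of wide peaks, which bears on every count of members. Because regions are overlaps, a wide peak of one replicate can be cut into several members by narrow peaks of the other. The 7348 members came from 6896 peaks of replicate 1 and 6830 of replicate 2, and 12.03% and 13.3% of members shared their peak with another member. Among other distal regions the shares were 4.85% and 4.93%. In 112 chains, at least 1 replicate had fewer than 10 separate peaks. When regions on the same peak were joined before linking, a step chosen after seeing the data, 381 chains with 5077 members were left, 7.21% of the distal regions so joined. Members were also more often very short, 4.23% under 100 bp against 2.11% of other distal regions, with median lengths of 399 and 350 bp.

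The largest chain, of 45 regions over 157 kb, lay wholly inside *Etv6*, which encodes an ETS-family transcriptional repressor. Its members were 70.1 to 227 kb downstream of the gene start, in a gene 234 kb long. They came from 43 separate peaks in each replicate. The members of replicate 1 lay between 3.26 and 25.8 in fold enrichment, with a median of 6.25. Those of replicate 2 lay between 3.27 and 23.4, with a median of 5.03. Only 7 of the 45 reached 10 in both replicates, so the chain consists of a few strong sites among many weak ones. The rank correlation of the replicates across its members was 0.848 (Spearman). The genes beside it, *Bcl2l14* and *Kap*, lay 133 and 252 kb away.

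A chain of 37 regions lay in the last part of *Nav2*, a cytoskeletal regulator of cell migration, 520 to 663 kb from the start of a gene 701 kb long. Its median fold enrichments were 5.70 and 4.53, and 3 members reached 10 in both replicates. *Dbx1* was the nearest other gene, 59.6 kb away. *Igf2r*, the imprinted receptor that clears IGF2, had 35 regions, of which 23 were in the gene and 12 upstream of it. The member of this chain with the highest mean of the replicates, 21.3 kb upstream, had 29.6 in replicate 1 and 19.6 in replicate 2. *Igf2r* also overlapped a second chain, for 47 regions in all. *Aff1*, a scaffold of transcription elongation complexes, held all 34 regions of its chain, with medians of 6.11 and 5.91.

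*Vps13d*, which encodes a lipid transfer protein, had 27 of the 34 regions of its chain, and the other 7 lay beyond its end towards *Dhrs3*. The member with the highest mean of the replicates, with 23.1 and 22.6, was among those 7. At *Mbnl1*, a splicing regulator, 32 of 33 regions were in the gene, and 4 members reached 10 in both replicates. *Zeb2*, a zinc-finger transcription factor of epithelial-mesenchymal transition, held 33 regions over 73.6 kb, the closest packing among the 9 chains of 33 or more. On one side its nearest protein-coding neighbour, *Acvr2a*, was 3706 kb away. A chain of 33 regions over 114 kb overlapped part of *Gse1*, a gene 353 kb long, and had medians of 5.70 and 5.78. *Gse1* also overlapped a second chain, of 17 regions. This locus, like the *Zfpm1* chain, also falls in *Gm20388*, an annotated readthrough gene of 4435 kb that overlapped 4 chains and adds no separate locus.

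**Figure D2:**
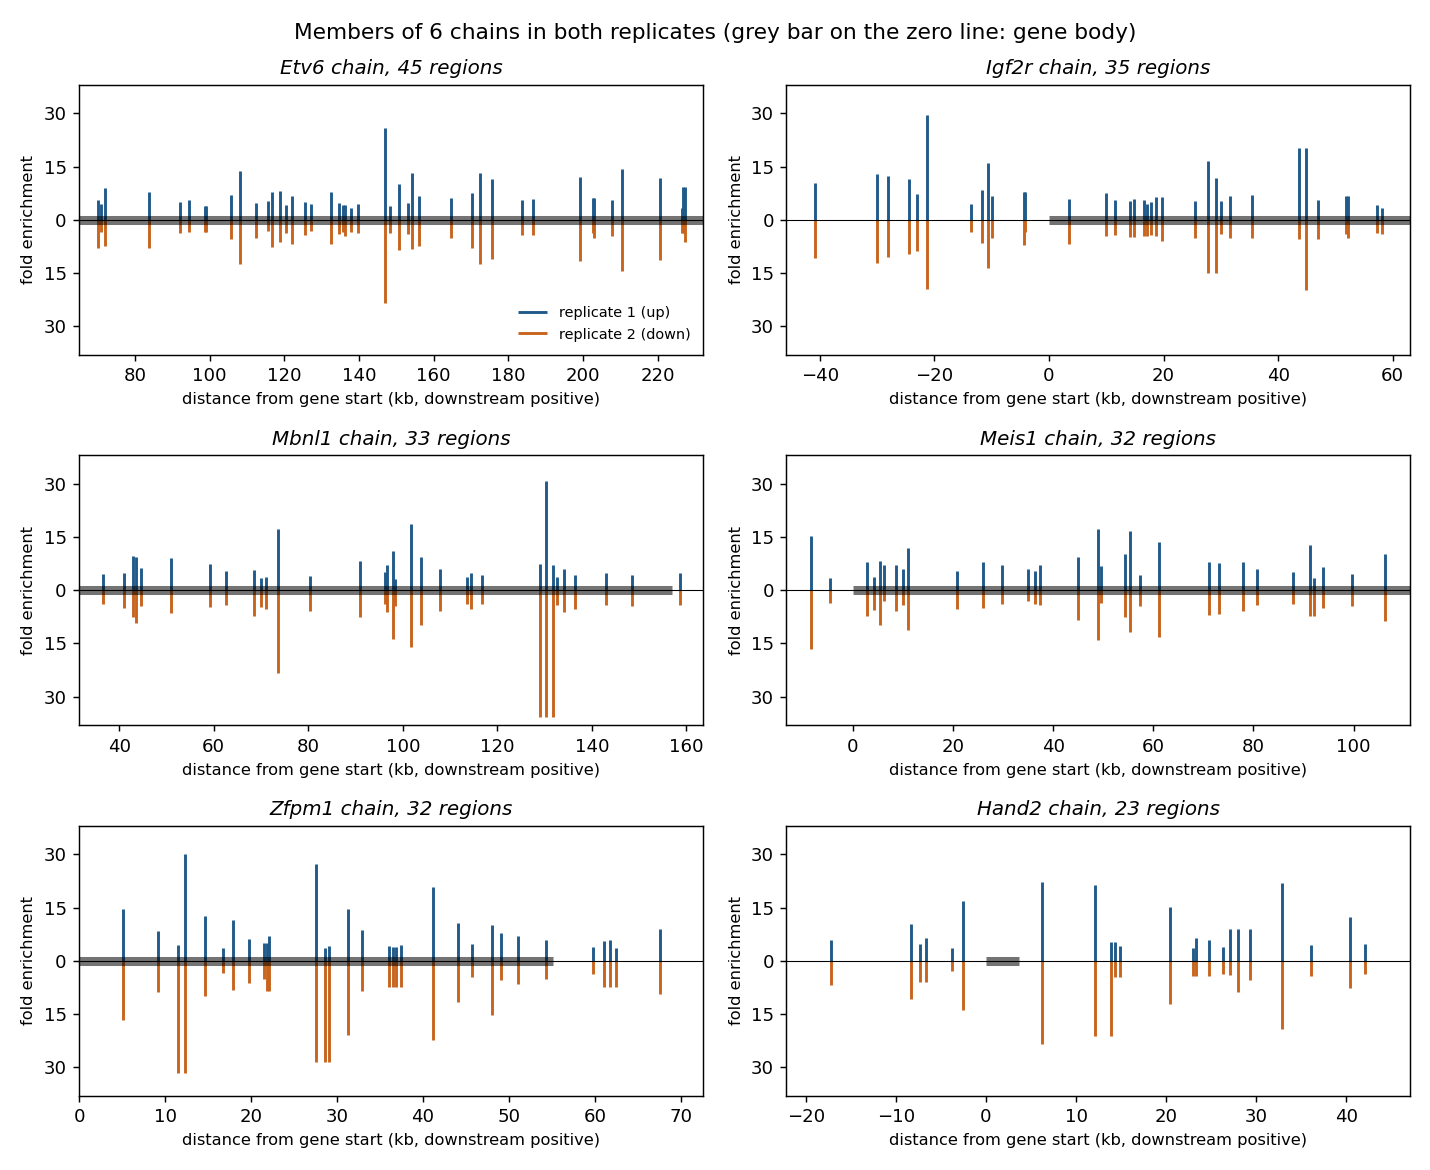
Fold enrichment of every member of 6 chains (replicate 1 up, replicate 2 down) against the distance from the gene start in kb, with the gene body as a grey bar. All 45 members at *Etv6* lie inside the gene, none of the 23 at *Hand2* do, and the tallest members recur in both replicates.

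*Ddc*, the enzyme that makes dopamine and serotonin, and *Grb10*, an imprinted inhibitor of insulin receptor signalling, are neighbours on chromosome 11, and each had a chain of its own. The *Ddc* chain had 33 regions and also overlapped *Fignl1*. Its median fold enrichments, 9.24 and 11.1, were the highest among the 9 chains of 33 or more in both replicates. The *Grb10* chain had 31 regions in 55.5 kb, or 55.8 per 100 kb, with medians of 6.52 and 4.53. *Ikzf1*, a transcription factor of lymphoid cells, lay 29.1 kb from the *Ddc* chain on its other side.

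The rest of the 25 largest chains had 25 to 32 regions. *Meis1*, a homeobox factor, had 32 and so did *Zfpm1*, a cofactor of GATA factors, and both are described below. Chains at *Mpzl1* with *Rcsd1* (30 regions), *Adamts7* with *Tbc1d2b* (29) and *Il17b* with *Pcyox1l* (29) each overlapped a pair of genes. The gene with the most regions was *Rcsd1* with 25, *Tbc1d2b* with 23 and *Il17b* with only 2, so the last chain lay mostly outside its genes. *Chd7*, a chromatin remodeller, had 28 in this chain and 40 over 2 chains. Chains of 27 lay at *Ldb3* with *Opn4*, at *Lgr4*, a receptor for R-spondins, at *Slc20a1*, a phosphate transporter, and at *Jph2*, which ties the plasma membrane to the calcium store of heart muscle cells. Another chain of 27 overlapped no protein-coding gene and lay beside *Myc*. *Irs2*, an insulin receptor substrate, had 26, and the chains at *Fndc3b*, at *Plekhf1* with *1600014C10Rik*, and at *St3gal1*, a sialyltransferase, had 25 each. Regions inside the gene numbered 12 at *Irs2*, 9 at *Slc20a1*, 7 at *1600014C10Rik*, 22 at *Lgr4*, 24 at *Jph2*, 24 at *St3gal1* and 25 at *Fndc3b*. Among the 25, the lowest median of replicate 1 was 4.89 at *Slc20a1* and the highest 9.51 at *St3gal1*, and replicate 2 had medians of 4.53 to 11.1. At *Slc20a1* the 27 regions came from 27 peaks of replicate 1 but only 19 of replicate 2. With each replicate alone, 16 of the 25 loci stayed among its 25 largest chains.

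Of the 531, 356 (67.04%) overlapped exactly 1 protein-coding gene, 87 (16.4%) overlapped 2 or more and 88 (16.6%) overlapped none. In 248 chains (46.7%) every member lay inside 1 gene, and 181 chains (34.1%) held a protein-coding start in their span. Members fell in introns in 66.4% of cases against 46.2% of other distal regions, in exons in 4.72% against 4.75%, and outside protein-coding genes in 28.9% against 49.0%. They were a median of 27.1 kb from the nearest start, compared with 37.25 kb for the others, and 10.8% against 26.2% were over 100 kb from one. The distance and the intron share were not set by the rule, beyond the 2.5 kb limit that both groups share. More than 1 chain was overlapped by 36 genes. Among them *Itpr1*, a calcium release channel, overlapped 3 chains with 35 regions in all.

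Among chains that overlapped no protein-coding gene, the chain of 27 regions lay 102 kb from *Myc*, the proto-oncogenic transcription factor, and 1585 kb from *Gsdmc*. All its members were downstream of *Myc*, 108 to 206 kb from its start. Replicates differed more here than in most chains, with medians of 5.16 and 6.79, a rank correlation of 0.436, and 27 peaks in replicate 1 against 20 in replicate 2. A chain of 24 lay between *Pim1*, a serine/threonine kinase, and *Fgd2*, at 20.1 and 36.2 kb, with medians of 8.96 and 7.04. A chain of 22 lay between *Lrrc74a* and *Irf2bpl*, and a chain of 20 lay beside *Cstad* and *1700001O22Rik*.

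Chains are called gene-free where they overlap no protein-coding gene, and genes of other kinds can overlap them. Further gene-free chains were a chain of 19 beside *Btg1*, an inhibitor of proliferation, at 64.2 kb, and a chain of 18 upstream of *Hey1* at 31.2 kb. A chain of 18 between *Btn2a2* and the histone gene *Hist1h4h* was the most tightly packed of the 10, with 52.4 regions per 100 kb, and no member of it exceeded 10.6 in replicate 1 or 9.80 in replicate 2. A chain of 17 began 4.91 kb from *Chd2*, a chromatin remodeller, and another of 16 lay between *Anxa3* and *Bmp2k*. The *Chd2* chain held a member of 43.5 in replicate 1, and its maximum in replicate 2 was 43.0. Annotated lincRNA or antisense genes overlapped 160 of all 531 chains (30.1%).

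Chains lay at several transcription factors that direct heart development. Of the 30 on a list of cardiac factors, 9 (30.0%) were in or beside a chain, against 6.78% of 20807 autosomal protein-coding genes, and 7 (23.3%) overlapped one, against 2.55%. The 7 were *Zfpm1*, *Meis1*, *Hand2*, *Irx4*, *Meis2*, *Mef2d* and *Isl1*, and *Hey1* and *Mef2c* were beside one. All 30 had a shared region at a start. With regions on the same peak joined, 6 of 30 remained, against 4.98% of all genes, and *Isl1*, *Mef2d* and *Mef2c* were lost, whose chains had 9 to 11 separate peaks per replicate. With genes taken instead by a start inside or within 100 kb of a chain, the count was 8 of 30 against 7.12%. The list was written with earlier results of these data known, so the counts are a description.

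At *Zfpm1*, the 32 regions spanned 62.6 kb, 27 of them in the gene and 5 beyond its end. Replicate 1 gave values of 3.53 to 30.2, with a median of 6.11, and replicate 2 gave 3.52 to 31.7, with a median of 8.42. The 3 members with the highest means were spread along the gene. The one 12.3 kb from the start had 30.2 and 31.7, and the member from 122308986 to 122310368 on chromosome 8 had 27.2 and 28.4. The member from 122321059 to 122325538, 4480 bp long, had 20.9 and 22.4. Only 24 separate peaks of replicate 2 underlie the 32 regions, and members of 140, 376 and 392 bp were given 31.7, 28.4 and 28.4 there, the values of peaks they share with a strong neighbour.

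At *Meis1*, 30 of the 32 regions were in the gene and 2 were upstream, over 115 kb, with 32 separate peaks in replicate 1 and 31 in replicate 2. Medians were 7.06 and 5.66, and 5 members reached 10 in both replicates. The upstream member of 1445 bp had 15.2 and 16.6, and an intragenic member of 593 bp had 17.4 and 14.1. These 2 had the highest means of the chain, and their order was opposite in the replicates. No other protein-coding gene lay within 896 kb, the distance to *Spred2*.

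*Hand2*, a basic helix-loop-helix factor required for the right ventricle and limb, is a gene of 3.65 kb, and its chain of 23 regions flanked it. There were 6 members upstream, reaching 17.1 kb from the start, and 17 downstream, reaching 42.1 kb. A member of 3233 bp had 21.5 in replicate 1 and 21.1 in replicate 2, and one of 1028 bp had 22.0 and 19.4. A member of 276 bp had 5.16 in replicate 1 but 21.1 in replicate 2, where it shared the peak of its neighbour. The genes on either side, *Scrg1* and *Fbxo8*, were 92.73 and 709.7 kb away.

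*Irx4*, a homeobox factor of the ventricles, had a chain of 18 regions, 4 in the gene and 14 downstream. A single region of 1211 bp, 38.6 kb from the gene start, had 32.1 and 31.4. No other member exceeded 11.95 in replicate 1, and in replicate 2 none exceeded 9.30 except a region of 200 bp on the same peak. *Hey1*, a transcriptional target of Notch, had 18 regions 31.4 to 99.96 kb upstream, of which 6 reached 10 in both replicates. *Meis2* overlapped a chain of 13, with medians of 6.25 and 5.78. *Mef2c*, a MADS-box factor, lay 47.8 kb from a gene-free chain of 12 with medians of 9.64 and 7.42. *Mef2d* and *Isl1*, a LIM-homeobox factor of cardiac progenitors, each had 10. The *Isl1* chain was weak throughout, with no member above 9.78 in replicate 1 or 9.55 in replicate 2.

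*Nkx2-5*, *Gata4*, *Gata5*, *Gata6*, *Tbx5*, *Tbx20* and *Shox2* were among the 21 listed factors with no chain of 10 in or beside them. *Gata4* had 16.0 and 16.3 at a start and *Tbx20* 35.6 and 30.2. This absence depends on the limits of the rule. With chains of 5 or more, 26 of the 30 were in or beside a chain, among 25.5% of all genes. With replicate 1 alone 15 of 30 were, against 10.3%, and with replicate 2 alone 15, against 10.1%.

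Sarcomere and calcium handling genes were in or beside chains in 6 of 30 cases (20%), against 6.78% of all genes. The count was 11 with replicate 1 alone and 9 with replicate 2 alone, against 10.3% and 10.1% of all genes, 14 with a limit of 1 kb from starts, against 9.18%, and 4 with genes taken by a start inside or within 100 kb of a chain, against 7.12%. *Ldb3*, a protein of the Z-disc, had 27 regions, 18 of them in the gene and 9 upstream, with medians of 9.24 and 6.28 and 9 members at 10 or more in both replicates. *Actn2*, the α-actinin that anchors actin filaments at the Z-disc, held all 12 regions of its chain, with medians of 6.79 in both replicates. *Kcnq1*, a potassium channel, overlapped a chain of 12. *Myom1*, *Tnni3* and *Casq2* were beside chains of 17, 11 and 10 regions, at 84.9, 6.34 and 12.7 kb. The chain next to *Tnni3* overlapped the troponin gene *Tnnt1*.

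Among signalling genes, 6 of 30 (20%) were in or beside a chain, against 6.78% of all genes, and 5 (16.7%) overlapped one, against 2.55%. The first count was 2 with a q-value limit of 1e-05, against 2.58% of all genes, and 11 with a limit of 1 kb from starts, against 9.18%. *Igf2r* led with 35 regions, followed by *Igf1r*, the receptor for IGF1, with 16. *Smad7*, an inhibitor of TGFβ signalling, and *Fzd4*, a WNT receptor, had 15 each. *Wnt11*, a ligand of non-canonical WNT signalling, had 10 from 8 and 9 separate peaks, and *Fgf12* was 106 kb from a chain of 11. Genes of this list have a median length of 63.7 kb, compared with 17.6 kb for all genes. The part of length in these counts was not tested. The cardiac factors had a median length of 24.1 kb and the sarcomere and calcium list 35.7 kb.

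The other 7 lists had 0 to 2 genes each in or beside chains, with shares of 0 to 11.1% against the 6.78% of all genes. In or beside one were 2 of 26 endothelial and endocardial genes (7.69%), *Tal1* with 17 regions and *Foxc1* with 12, both overlapping. Of the cushion and valve mesenchyme list 2 of 26 were, *Smad6* beside 14 and *Fbln2* beside 11 regions. With replicate 1 alone these 2 lists had 9 and 4 genes, and with replicate 2 alone 6 and 6, against 10.3% and 10.1% of all genes. No epicardial gene of 16 was at a chain. *Ikzf1*, beside the *Ddc* chain, was the only 1 of 15 autosomal blood genes (6.67%). The blood count was 5 with a limit of 1 kb from starts, against 9.18% of all genes, and 5 with genes taken by a start inside or within 100 kb of a chain, against 7.12%. Among tissues other than heart, 2 of 20 neuronal genes (10%), 2 of 18 liver and gut genes (11.1%) and 1 of 16 skeletal muscle genes (6.25%) were counted. None of the neuronal, liver or gut genes overlapped a chain. *Syt1* was 25.4 kb, *Lhx2* 153 kb and *Apob* 2693 kb from the nearest chain that they flank. *Tnnt3*, a troponin of fast skeletal muscle, overlapped a chain of 21, of which only 1 region lay in the gene.

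**Figure D3:**
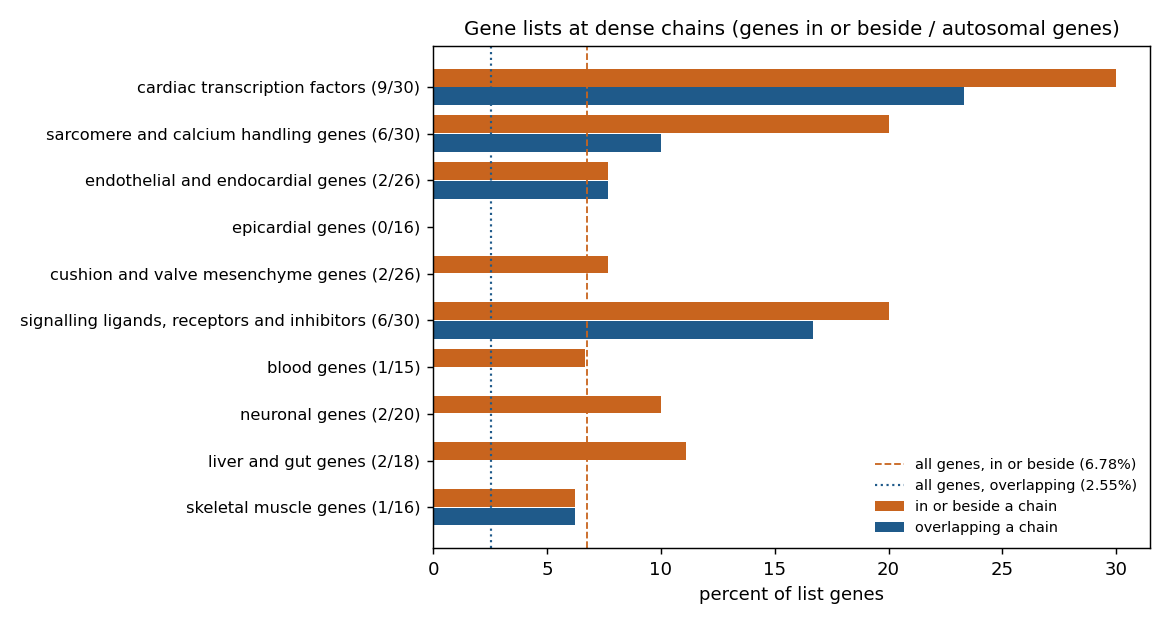
Percent of the autosomal genes of 10 lists that lie in or beside a chain (orange) or overlap one (blue), with the shares of all autosomal protein-coding genes as lines at 6.78% and 2.55%. Both bars exceed their lines for cardiac transcription factors (30.0% and 23.3%), signalling, sarcomere and endothelial genes, 1 of the bars does for the neuronal, liver and gut, cushion and skeletal muscle lists, the blood list stays below both, and the epicardial list has no bar.

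Promoters of genes at chains were mostly open. A shared region within 2.5 kb of a start was present at 501 of 531 overlapping genes (94.4%) and at 734 of 880 genes that were only beside a chain (83.4%), against the 69.6% of all autosomal protein-coding genes. Median promoter fold enrichment was 27.4 and 27.2 for overlapping genes, 25.9 and 26.3 for those beside, and 24.2 and 24.4 for all genes with an open promoter. Promoter regions were not used to choose the members. Overlapping genes were long, with a median of 83.0 kb, and those beside had a median of 30.4 kb. Length was not separated from these shares.

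Single members were of ordinary strength. Median fold enrichment was 6.52 in replicate 1 and 5.78 in replicate 2, compared with 5.98 and 5.28 in other distal regions. A step of the scale, about 1 read, is 0.272 in replicate 1 and 0.251 in replicate 2, so the medians differ by a few reads. With each peak counted once, the difference in replicate 1 fell from 0.543 to 0.272, while that in replicate 2 stayed at 0.503. Upper quartiles were 9.78 and 9.30 in members and 8.69 and 7.54 in the others. By chain size, medians went from 5.98 and 5.28 in single regions to 6.52 and 5.78 in chains of 10 to 14 without falling in between. Among larger chains they were 6.25 and 5.53 at 15 to 19 regions, 6.52 and 6.03 at 20 to 29, and 6.25 and 5.78 at 30 or more. Regions near starts, at 14.1 and 14.3, were far above both. These values come from the same peaks that chose the members and are a description.

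Strength varied more within chains than between them. The highest member of a chain exceeded the lowest by a median of 4.76-fold in mean fold enrichment, and only 12.3% of the variance of its log2 values lay between chains. Within chains, the Spearman correlation of the replicates had a median of 0.724 (quartiles 0.561 and 0.835), and it was below 0 in 3 chains. In 420 of 531 chains (79.1%) the strongest member of replicate 1 was also a strongest member of replicate 2. Of the 125 chains in which no peak was shared by members, 103 (82.4%) had the same strongest member. The medians of whole chains correlated less well between replicates, with a rho of 0.534 over 531 chains.

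**Figure D4:**
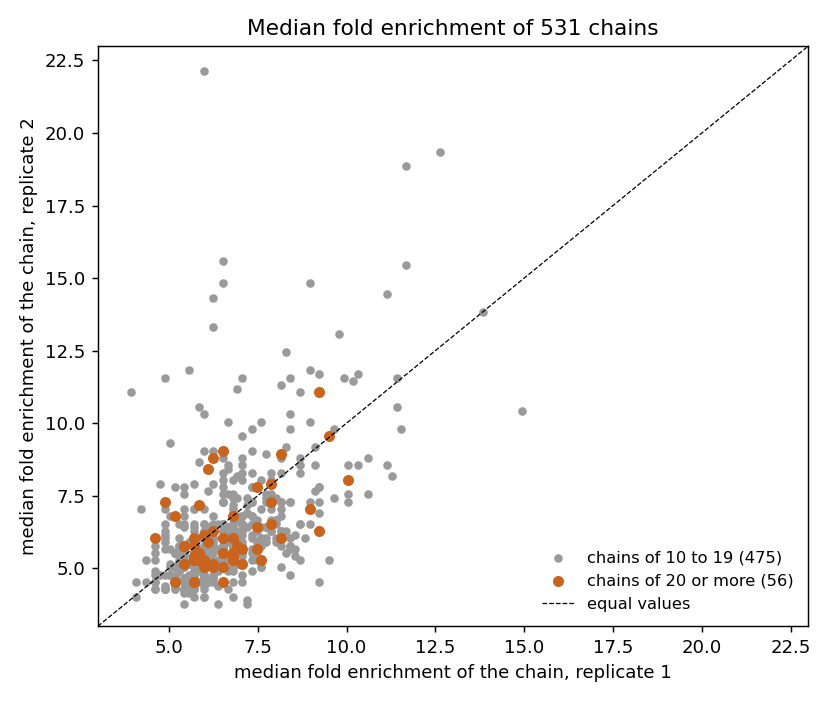
Median fold enrichment of each of the 531 chains in replicate 1 (x axis) and replicate 2 (y axis), with chains of 20 or more in orange and a dashed line at equal values. Most chains lie between about 4 and 10 in both, the 56 large chains are not the strongest, and the outlying point at 5.98 and 22.1 is the *Nek6* chain.

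The chains with the highest median of the mean fold enrichment were small, with 10 to 14 regions, and several rested on wide peaks. The first, of 11 regions in *Arhgap23*, a GTPase-activating protein, had medians of 11.7 in replicate 1 and 18.9 in replicate 2 from 10 peaks in each. A gene-free chain of 10 between *Pabpc1* and *Ywhaz* had 12.6 and 19.4, but only 9 and 6 separate peaks. The chain of 11 in *Nek6* had 5.98 and 22.1, with 11 peaks in replicate 1 and 7 in replicate 2, so a few strong peaks of replicate 2 were counted several times. Chains at *Ehd1* (11 regions), between *Smad6* and *Lctl* (14) and between *Xcl1* and *Tbx19* (11) followed. *Smad6*, an inhibitor of BMP signalling, was 22.1 kb away from its chain, which had 13 separate peaks in each replicate and medians of 11.1 and 14.5.

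The other 4 of the 10 lay in the γ-protocadherin cluster with *Diaph1*, between *Wdr26* and *Cnih3*, in *Mknk1*, and between *Marcks* and *Rfpl4b*. Among the 10, each replicate had at least 10 separate peaks only at *Arhgap23*, *Ehd1* and *Smad6*. The longest member of any chain, singled out after the values were seen, spanned 17297 bp on chromosome 2 (173021566 to 173038862) in the 10-region chain at *Rbm38*, an RNA-binding protein. It had 43.2 in replicate 1 and 43.7 in replicate 2. Only its midpoint had to lie more than 2.5 kb from a start, so a region this wide can hold promoter signal, which was not examined.

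Peaks seen in only 1 replicate were less frequent inside chains. Of the distal peaks within chain spans, 11.4% in replicate 1 and 11.98% in replicate 2 had no overlap in the other replicate, compared with 22.5% and 19.5% elsewhere. Chains were built from shared regions, so part of this difference follows from the rule. Taken alone, replicate 1 gave 861 chains of 10 or more and replicate 2 gave 808, and these overlapped 503 (94.7%) and 498 (93.8%) of the 531 shared chains.

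The DNA of members differed little from that of other distal regions. Motifs were searched on both strands in 300 bp around the replicate 1 summit, with N for any base. This summit lay inside the shared region for 88.65% of members and 93.5% of other distal regions. For the rest, the window was centred outside the region. GATA letters (AGATAA) were in 24.7% of members against 26.3% of other distal regions and 26.1% of all. MEIS letters (TGACAG) were in 29.5% against 31.6%, NKX2 (TNAAGTG) in 16.2% against 18.6%, TEAD (GGAATG) in 21.4% against 22.7%, and MEF2 (CTATTTNTA) in 2.91% against 3.65%. The 95% Wilson intervals of members and others did not overlap for GATA, MEIS, NKX2 and MEF2 and touched for TEAD, but they treat regions as independent, and members of a chain are not. HAND (CATCTG) was at 24.8% in both, AP-1 (TGANTCA) at 12.9% and 13.1%, T-box (GGTGTGA) at 5.06% and 4.95%, and SOX (ACAATGG) at 3.87% and 4.002%. CTCF (CAGNGGGCG) was at 1.63% and 1.67%, ETS (CCGGAAGT) at 0.449% and 0.467%, and SP/KLF (GGGCGGGG) at 3.62% and 3.21%. AGATAA and GGAATG do not contain one another, and matches of different motifs can overlap.

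The order of members and others changed with strength for some motifs and with the window for some. In the lowest quartile of mean fold enrichment, GATA letters were in 18.9% of members and 24.3% of others, and in the highest quartile in 31.6% and 30.0%. TEAD letters likewise went from 19.03% and 22.6% to 22.5% and 22.0%, while MEIS, NKX2 and MEF2 letters were less frequent in members in all 4 quartiles. Over the whole region in place of a fixed window, MEIS, NKX2 and TEAD letters were more frequent in members, by 1.80, 0.766 and 1.79 percentage points. There the GATA difference shrank from -1.63 to -0.0881 points, and that of T-box letters grew from 0.108 to 1.82. Members are longer than the others, and the part of length in these changes was not tested. Median GC content of the windows was 50.7% in members and 49.0% in others. Near starts it was 61.3%, and SP/KLF letters were in 25.2% of windows there. Within the largest chain, 16 of the 45 windows at *Etv6* had GATA letters and 14 had MEIS letters, where the shares in all distal regions were 26.1% and 31.4%. At *Meis1* the numbers were 14 and 8 of 32, and at *Igf2r*, where HAND letters (24.8% of all distal regions) were in 17 of 35, they were 6 and 14. Members on the same replicate 1 peak have the same window, so that these come from 43 separate windows at *Etv6*, 32 at *Meis1* and 31 at *Igf2r*.

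**Figure D5:**
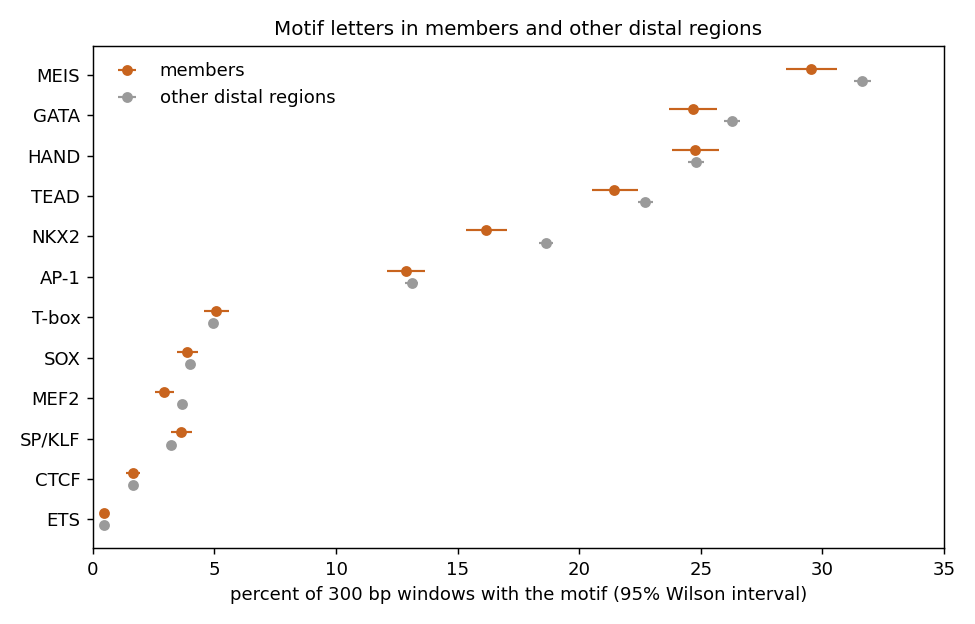
Percent of 300 bp windows that hold each of 12 motifs, in members (orange) and other distal regions (grey), with 95% Wilson intervals. Members lie slightly to the left of the others for MEIS, GATA, NKX2 and MEF2, and the intervals overlap for the other 8.

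The gene desert between *Shox2*, the homeobox gene of the sinus node and limb, and *Veph1* had no chain of 10. It held 32 distal regions in 15 chains, and none of the 32 was a member. This depends on the rule, since the same stretch held a chain of 11 regions with replicate 1 alone, of 12 with replicate 2 alone and of 11 with a linking distance of 25 kb. The largest of the 15, from 66480660 to 66520374 on chromosome 3, had 8 regions with medians of 9.51 and 10.2, above the medians of members. The next had 6 regions, with 7.88 and 8.30. The nearest chains of 10 or more shared regions lay 1518 and 1594 kb from *Shox2*, at *Schip1*, with 13 and 10 regions. *Rsrc1*, the neighbour of *Shox2* on its other side, overlapped no chain either.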

How the data were processed

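ATAC-seq peaks of wildtype E11.5 hearts were analysed in 2 replicates. Per the study's methods and the submitters' processing notes, the authors trimmed reads of 50 bp with Trim Galore 0.6.6, mapped them to GRCm38/mm10 with Bowtie2 2.4.2, removed duplicates and poorly mapped reads with SAMtools 1.12, which thins repeated sequence, and called peaks per replicate with MACS2 without a local background. The largest p-values in the deposited lists were 0.000476 and 0.00104 and the largest q-values 0.0194 and 0.0425 (replicates 1 and 2), so the lists end before the p-value limit stated in the methods. In the deposited lists, the summit of each peak has a fold enrichment, which is a ratio, a −log10 p-value, a −log10 q-value and a score, the −log10 q-value times 10. The lists hold no read totals, so depth is unknown and no counting interval was computed for a peak.

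Shared regions, chains and gene positions were computed from the lists and GENCODE M21 with Python 3.11.15, NumPy 2.4.6 and pandas 2.3.3, and motifs were searched in the GRCm38 reference with pysam 0.24.0. Distal regions were linked over at most 12.5 kb. A region took the fold enrichment of the peak that it overlapped in each replicate. Genes were named in a chain where their body overlaps its span, and beside it where they are the nearest other protein-coding gene on either side. The text names the genes of the 25 largest chains, of the 10 largest gene-free chains and of the 10 chains with the highest median of mean fold enrichment, up to 6 genes of each of 10 lists, and those around *Shox2*. More than 6 cardiac factors are named, and the factors without a chain, *Frs2*, *Itpr1*, *Rbm38* and *Tnnt1* were also named after their values were seen. Some genes and a sequence that this rule takes are not reported here. The members and lists were chosen with earlier results of these data known. Alternatives varied the linking distance, chain size, q-value limit, overlap, distance from starts, replicate, region ranking, comparator and window. The code was tested on simulated data, where 200 of 200 planted chains were recovered with their size. No samples were compared, because the replicates form 1 group. Intervals of motif shares (95%, Wilson) cover counting error only.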

Additional observations from a re-analysis of the deposited data

Results flagged for a closer look

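The autosomal rule leaves out chromosome X, on which 1491 distal regions were shared. By the same linking, 1 chain of 10 regions was found there, a signal in data outside the main measurement. It lies on chromosome X between *H2al1j* and *Bcor*, a transcriptional corepressor, spans 19.1 kb and overlaps no protein-coding gene. Its median fold enrichment was 6.25 in replicate 1 and 8.55 in replicate 2.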

How the results depend on the processing

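The limits of the rule set the counts. The 531 chains became 79 with a linking distance of 5 kb and 1368 with 25 kb, 2962 with chains of 5 or more and 56 with chains of 20 or more, 188 and 27 with q-value limits of 1e-05 and 1e-10 in both replicates, 250 where peaks had to cover 50% of each other, and 327 with starts of all annotated transcripts. In the same order, the 7348 members became 976, 22510, 22239, 1437, 2404, 309, 3209 and 4345, and their share of distal regions 1.30%, 30.1%, 29.7%, 1.92%, 4.39%, 1.07%, 4.99% and 6.66%. This share was 11.7% and 7.83% with limits of 1 kb and 5 kb from starts, which kept both counts within 1.5 times, and 7.21% with regions on the same peak joined, an alternative chosen after seeing the data. With 1 replicate left out, there were 808 to 861 chains, 11723 to 12515 members and a share of 13.1% to 13.5%.

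Over all 10 lists, 31 genes were in or beside a chain, where the share of all genes was 6.78%. In the order above, this became 6, 97, 121, 8, 20, 5, 19 and 17, and 51 and 20 at 1 kb and 5 kb from starts, 18 for overlapping genes only and 51 to 56 with 1 replicate left out. The shares of all genes in that order were 0.990%, 19.4%, 25.5%, 0.836%, 2.58%, 0.384%, 3.39% and 4.12%. They were 9.18% and 4.73% at 1 kb and 5 kb, 2.55% for overlapping genes and 10.1% to 10.3% with 1 replicate left out. The 9 cardiac factors became 3, 19, 26, 3 and 2 with linking distances of 5 and 25 kb, chains of 5 and 20 or more and the q-value limit of 1e-10, where the shares of all genes were 0.990%, 19.4%, 25.5%, 0.836% and 0.384%, 5 with either that overlap (3.39% of all genes) or all starts (4.12%), and 15 with either replicate left out (10.1% to 10.3%). Of the 25 largest loci, 16 were among the largest 25 with either replicate left out, 17 with chains ranked by summed region length and 19 with peaks joined. The difference in fold enrichment of replicate 1 was 0.272 with each peak counted once, likewise chosen after seeing the data, as was counting each replicate 1 peak once in the motif and GC shares, which turned no sign. It did not change with the median over overlapping peaks, since each region overlaps exactly 1 peak per replicate, or with only chains of 1 to 3 as comparator. The GC difference of 1.67 percentage points was 1.31 over whole regions and 1.37 within quartiles of fold enrichment. Over whole regions, the signs of the differences of NKX2 (0.766 points), TEAD (1.79) and MEIS (1.80) turned, where the main values were negative. Except for the smaller or larger sets that the limits make by construction, the cause was not tested for any of these changes. No paired analysis was possible because there is only 1 group of samples. Without read totals, a region missing from a list cannot be told apart from one below the limit of detection.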
